A study of Mus musculus with 4 samples.

Results

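Platelet-lineage transcripts were followed in single haematopoietic stem cells (HSC) of mouse bone marrow through 10 genes: Vwf, Itga2b, Itgb3, Pf4, Clu, Selp, Gp1bb, Gp9, Cd9 and Plek. They were chosen by name from 24411 gene rows, by a rule that sets no threshold on a measured value, and all 10 had counts in all 4 libraries. Cells with at least 1000 detected genes were kept, 188 in all. There were 2 libraries from Mat KO animals, with 44 cells in replicate 1 and 48 in replicate 2, and 2 from wild-type (WT) animals, with 48 cells each. The labels give the genotype as Mat KO without naming the allele, the strain, the age or the sex, and no treatment differed between the groups. The study's title concerns small nucleolar RNAs of the imprinted Dlk1-Gtl2 locus and how long-term HSC renew themselves.

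Platelets bud from megakaryocytes, and some long-term HSC already carry transcripts of that lineage. In mouse bone marrow such cells are called platelet-biased or platelet-primed stem cells, and Vwf is the gene most used to mark them. The products of the 10 genes fall into a few roles. Vwf (von Willebrand factor) and Pf4 (platelet factor 4, a chemokine) are cargo of platelet alpha granules. Clu encodes clusterin, a secreted chaperone. Itga2b and Itgb3 encode the subunits of the fibrinogen receptor of platelets, and Gp1bb and Gp9 encode subunits of the receptor for von Willebrand factor. Selp encodes P-selectin, an adhesion molecule of platelets and endothelium, Cd9 a tetraspanin of the platelet surface, and Plek pleckstrin, a protein kinase C substrate that is also abundant in leukocytes. Clu, Selp and Vwf have been used as markers of megakaryocyte-biased or aged stem cells in mice.

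Each value is a count of unique molecular identifiers (UMIs), that is of tagged cDNAs from the 3' part of a transcript, so it does not scale with transcript length. Library totals were 1900319 and 1768647 UMIs for Mat KO and 3183279 and 3253608 UMIs for WT. Per cell the median was 33612.5 and 27845 UMIs in the Mat KO libraries against 53092.5 and 51437 in the WT libraries, so depth differed with genotype. Shares of cells were therefore also taken at equal depth, with each cell drawn down to 8800 UMIs, which left 39 and 41 Mat KO cells and 46 and 44 WT cells and left out 18. The HSC label was checked against textbook markers: Kit had a UMI in 168 of the 188 cells, Hlf in 165, Ly6a in 102, Mecom in 95, Procr in 85 and Slamf1 in 26. Markers of other lineages were present as well, with 10 and 3 cells of granulocyte or monocyte type in Mat KO against 2 and 3 in WT, 6 and 4 B-lymphoid cells in Mat KO against 5 and 3 in WT, 1 T or NK cell in Mat KO replicate 1 and 3 erythroid cells in WT replicate 2. The other 27 and 41 Mat KO cells and 41 and 39 WT cells passed none of these limits and are called lineage-low below. Of the maternally expressed RNAs of the locus, Meg3 had 18.4 and 32.8 CPM (the count scaled to its library's total) in Mat KO libraries and 52.8 and 47 in WT libraries. For Rian a single Mat KO cell of replicate 2 held all 25 UMIs, and Mirg was seen in WT replicate 1 alone, with 47.

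All 10 genes were measured in both genotypes, and none differed between Mat KO and WT past an adjusted p of 0.05. Clu had the estimate farthest from 0 as a fold change, with UMIs in 2 Mat KO cells against 13 WT cells. Gp1bb and Gp9 had lower CPM in each Mat KO library than in either WT library, and Itgb3 had higher ones. Vwf, Pf4, Itga2b, Selp, Cd9 and Plek overlapped between the genotypes on that scale. The number of these genes found in a cell, and the share of cells that held at least 4 of them, overlapped between the genotypes in the single draw at equal depth, and the share was lower in both Mat KO libraries as a mean over all draws.

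The alpha-granule genes gave different pictures. Vwf (chromosome 6, 125546774 to 125686679, plus strand; coordinates here and below are of GRCm38, GENCODE M21) had 53 UMIs in the first Mat KO library and 132 in its replicate, against 131 and 69 UMIs in those of WT. This was 27.9 and 74.6 CPM in the Mat KO libraries against 41.2 and 21.2 in the WT libraries. Mat KO replicate 2 was the highest library and WT replicate 2 the lowest, and the groups overlapped. Vwf had a UMI in 9 of 44 and 19 of 48 Mat KO cells, against 13 of 48 cells in each WT library. The estimated log2 fold change was 0.76 (SE 0.61; Benjamini-Hochberg adjusted p = 0.817 over 10663 genes, edgeR quasi-likelihood test). Its 95% interval ran from -0.44 to 1.95, and the direction rested on 1 library, since without Mat KO replicate 2 the estimate was -0.15.

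Pf4 (chromosome 5, 90772435 to 90773383, plus strand) had 110 and 147 UMIs in the Mat KO libraries against 250 and 303 in the WT libraries, or 57.9 and 83.1 against 78.5 and 93.1 CPM. The groups overlapped, and the log2 fold change was -0.25 (SE 0.39, adjusted p = 0.93, edgeR). Single cells carried much of the signal. The leading cell of each library held 45.5% and 58.5% of the Pf4 UMIs in the Mat KO libraries against 38.4% and 39.3% in the WT libraries.

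Clu (chromosome 14, 65968483 to 65981547, plus strand) was nearly missing from Mat KO cells. It had 1 and 1 UMI in the Mat KO libraries against 28 and 34 in the WT libraries, each Mat KO UMI in a single cell, against 4 and 9 cells with a UMI in WT. The levels were 0.53 and 0.57 CPM in the Mat KO libraries against 8.8 and 10.4 in the WT libraries, with no overlap. The summed ratio of Mat KO to WT was 0.0566 (exact 95% interval 0.0067 to 0.213, counting error only). In WT replicate 1 a single cell held 25 of the 28 UMIs, while in WT replicate 2 the leading cell held 12 of 34. The fitted log2 fold change was -3.99 (SE 1.65, unadjusted p = 0.0334, adjusted p = 0.597, edgeR), so Clu did not pass the test over all genes.

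For the fibrinogen receptor, the alpha and beta subunits went in opposite directions without passing the test. Itga2b (chromosome 11, 102453297 to 102470122, minus strand) had 34 and 125 UMIs in the Mat KO libraries against 333 and 215 in the WT libraries, or 17.9 and 70.7 against 104.6 and 66.1 CPM. Only Mat KO replicate 1 lay below both WT libraries, and the log2 fold change was -0.91 (SE 0.59, adjusted p = 0.757, edgeR). Without Mat KO replicate 2 it was -2.24, with an adjusted p of 0.0789 by edgeR. Itgb3 (chromosome 11, 104608000 to 104670476, plus strand) had 45 and 63 UMIs in Mat KO libraries, and 59 and 32 in WT libraries. That was 23.7 and 35.6 CPM in the Mat KO libraries against 18.5 and 9.8 in the WT libraries, with no overlap. The log2 fold change was 1.10 (SE 0.73, adjusted p = 0.767, edgeR). A single cell held 60% and 46% of these UMIs in the Mat KO libraries, and 67.8% and 40.6% in the WT libraries.

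For the von Willebrand factor receptor, both subunits in the list were lower in Mat KO libraries. Gp9 (chromosome 6, 87778072 to 87779768, plus strand) had 47 and 51 UMIs in the Mat KO libraries against 123 and 198 in the WT libraries, or 24.7 and 28.8 against 38.6 and 60.9 CPM. The groups did not overlap, and the log2 fold change was -0.86 (SE 0.54, adjusted p = 0.748, edgeR). A single cell held 42.6% and 31.4% of the Gp9 UMIs in the Mat KO libraries, and 63.4% and 26.3% in the WT libraries. Without the leading cell of each library the estimate was -0.67. Gp1bb (chromosome 16, 18620317 to 18622403, minus strand) had 7 and 9 UMIs in the Mat KO libraries against 68 and 35 in the WT libraries, or 3.7 and 5.1 against 21.4 and 10.8 CPM. Its log2 fold change was -1.83 (SE 1.08, adjusted p = 0.729, edgeR), and it ran from -4.41 to -0.35 over 13 other settings. Gp1bb overlaps Sept5 and Gm49601 on the same strand in the annotation, so its counts are uncertain. Its UMIs came from 2 and 1 cells in Mat KO and from 6 and 4 cells in WT. In WT replicate 1 the cell that led for Gp9, with 78 UMIs, also held 37 of the 68 Gp1bb UMIs.

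Of the 3 surface and signalling genes, Cd9 (chromosome 6, 125460266 to 125494791, minus strand) had 158 and 135 UMIs in the Mat KO libraries against 342 and 209 in the WT libraries, or 83.1 and 76.3 against 107.4 and 64.2 CPM. The Mat KO libraries lay between the WT libraries, and the log2 fold change was -0.07 (SE 0.40, 95% interval -0.85 to 0.70, edgeR). Plek (chromosome 11, 16971206 to 17052381, minus strand) had 167 and 396 UMIs in the Mat KO libraries against 410 and 780 in the WT libraries, or 87.9 and 223.9 against 128.8 and 239.7 CPM. Within each genotype the libraries of Plek differed more than the genotype means did (155.9 ± 96.2 in Mat KO, 184.3 ± 78.4 in WT, SD, n = 2 each). Selp (chromosome 1, 164115264 to 164150026, plus strand) had 7 and 8 UMIs in the Mat KO libraries against 25 and 4 in the WT libraries, from 9 cells in all, too few to give a direction. Selp, Cd9 and Plek overlap annotated genes on the opposite strand, and the sources used here do not say whether counting used strand.

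**Figure D1:**
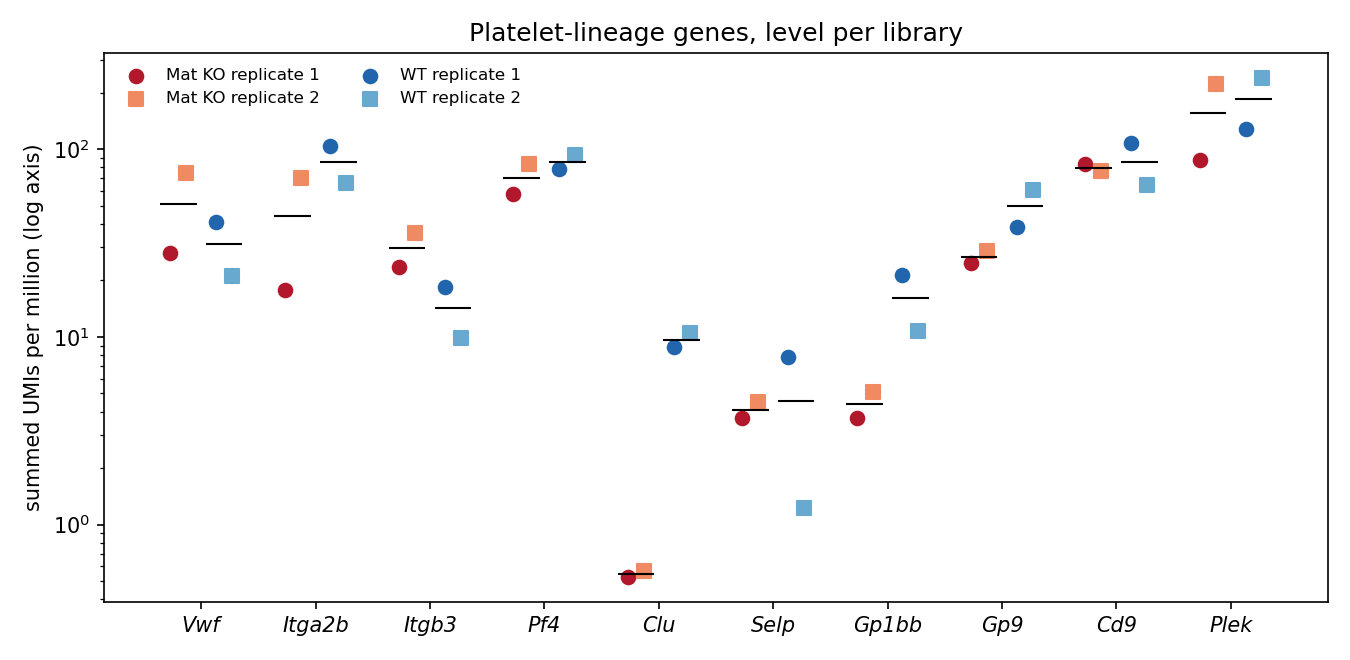
Level of each platelet-lineage gene in each library, as summed UMIs as CPM on a log axis, with Mat KO libraries left of WT libraries and a black line at each genotype's mean. Clu lies at 0.53 and 0.57 in the Mat KO libraries against 8.8 and 10.4 in the WT libraries, while Vwf, Itga2b, Pf4, Selp, Cd9 and Plek overlap between the genotypes.

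The members' count can be read against all genes. With 2 libraries against 2, 4 of the 10 genes did not overlap between the genotypes in CPM, 1 higher and 3 lower in Mat KO, where 39.1% of the 10663 genes tested did not overlap, 17.8% higher and 21.3% lower. None of the 10 passed the adjusted threshold, where 0.075% of all genes did. Estimates were above 0 for 2 members and below 0 for 8, with a median log2 fold change of -0.23, beside -0.01 over all genes tested. Clu alone had an unadjusted p under 0.05, where 834 of 10663 genes had one.

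At equal depth the share of cells with each gene followed the levels in part. Itgb3 had a UMI in 12.8% and 14.6% of Mat KO cells and in 4.3% and 4.5% of WT cells. Vwf was found in 17.9% and 24.4% of Mat KO cells and in 17.4% and 6.8% of WT cells. Both were higher in each Mat KO library, though for Vwf Mat KO replicate 1 and WT replicate 1 were nearly equal. Pf4 was found in 15.4% and 14.6% of Mat KO cells and in 17.4% and 29.5% of WT cells. Clu was found in 0 of 39 and 0 of 41 Mat KO cells, which allows shares of up to 7.69% and 7.32%, and in 4.3% and 9.1% of WT cells. Gp1bb was found in 2.6% and 0% of Mat KO cells and in 6.5% and 4.5% of WT cells. Each of these 5 genes reached p = 0.333 in the exact two-sided permutation test over libraries, which is the smallest p that 2 libraries against 2 allow.

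The other shares overlapped between the genotypes, apart from Plek, which also reached p = 0.333 in that permutation test. Itga2b was found in 20.5% and 31.7% of Mat KO cells and in 23.9% and 18.2% of WT cells, and Gp9 in 7.7% and 12.2% of Mat KO cells and in 8.7% and 25% of WT cells. Cd9 was found in 43.6% and 29.3% of Mat KO cells and in 41.3% and 31.8% of WT cells. Plek, the most often detected, was found in 46.2% and 51.2% of Mat KO cells and in 41.3% and 45.5% of WT cells. Selp was found in 3 cells of WT replicate 1 alone. In all, 6 of the 10 genes did not overlap in these shares (Vwf, Itgb3 and Plek higher in Mat KO, Pf4, Clu and Gp1bb lower), where 36.6% of 11220 genes did not overlap.

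A single draw of 8800 UMIs carries its own chance, so the mean over all possible draws was also computed, a check added after the data were seen. For Itga2b it was 13.8% and 30.4% of cells in Mat KO libraries against 24.9% and 22.2% in WT libraries, and for Plek 39.2% and 49.6% in Mat KO against 41.2% and 53.4% in WT, so neither gene was higher in Mat KO by this measure. Itgb3 stayed higher in Mat KO, at 12.3% and 15.9% of cells against 7.3% and 5.8% in WT. Vwf gave 17.1% and 23.5% in the Mat KO libraries against 16.5% and 11.4% in the WT libraries. The size of both differences moved with the setting. For Itgb3 it was 9.28 percentage points in the single draw, 0.0914 in a draw to 5000 UMIs and 4.08 when at least 2 UMIs were asked for. For Vwf it was 9.06 points in the single draw, 2.94 without thinning, 3.84 in a draw to 20000 UMIs, 4.46 when at least 2 UMIs were asked for and 3.78 without WT replicate 2.

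**Figure D2:**
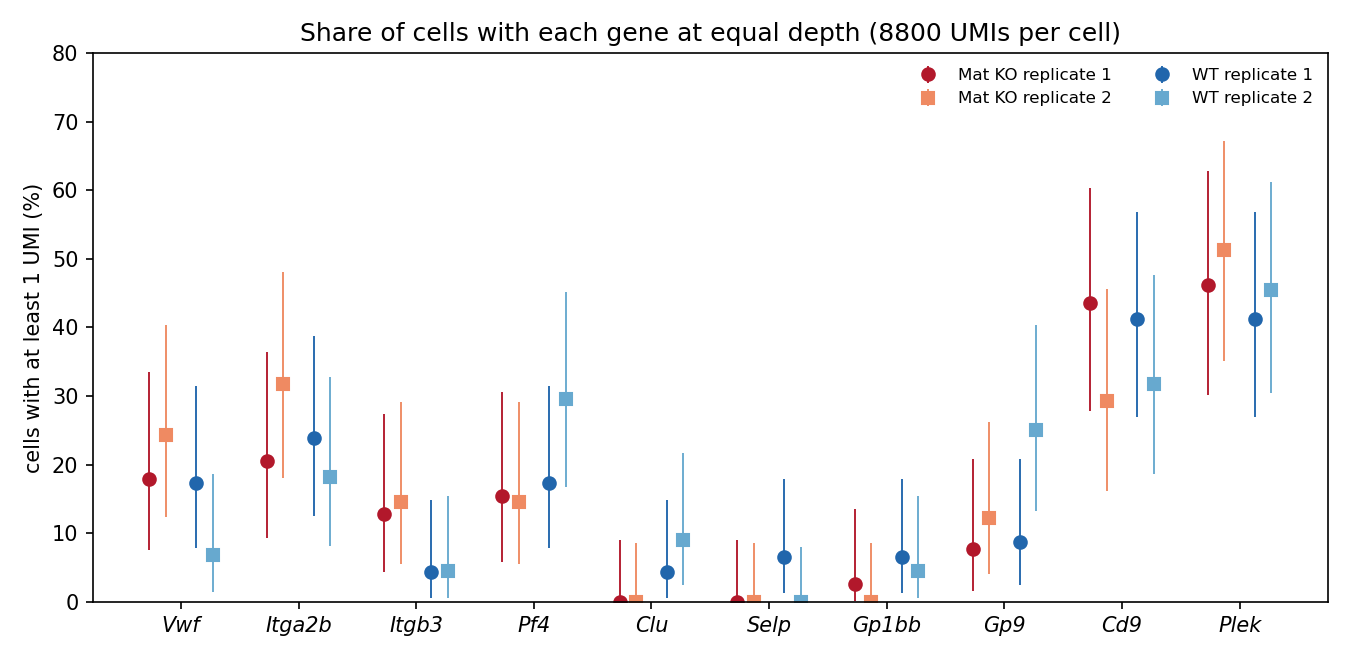
Share of cells with at least 1 UMI of each gene after every cell was drawn down to 8800 UMIs, with exact 95% binomial intervals that cover counting error only, Mat KO libraries left of WT libraries. Itgb3 lies at 12.8% and 14.6% in the Mat KO libraries against 4.3% and 4.5% in the WT libraries, and the intervals of the libraries overlap for every gene.

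The 192 barcodes without a cell held few UMIs, 3947 in all, of which 1 belonged to the 10 genes, a Clu UMI in WT replicate 1. In kept cells the 10 genes had 5344 of 10105853 UMIs. At that rate 3947 UMIs are too few to show whether the share of the 10 genes was lower outside cells. These barcodes were used for no cell in any library, so they do not measure carry-over between used barcodes. B-lymphoid cells, which should lack most of these genes, had no UMI of Vwf, Itgb3, Pf4, Clu, Selp, Gp1bb or Gp9 in 17 cells at equal depth, each count of 0 allowing a share of up to 17.6%. In the 134 lineage-low cells at the same depth, Vwf was found in 20.1%, Pf4 in 22.4% and Gp9 in 17.2%. The median depth before thinning was 70823 UMIs in the B-lymphoid cells and 44008.5 in the lineage-low cells. Cell barcodes cannot separate the libraries, because all 4 used the same 48 barcode numbers and 44 numbers held a kept cell in each. Of 160 detections that rested on 1 UMI, 37 had a count of at least 10 for that gene at the same barcode in another library, where 44.4 would be found at the rate of cells with no UMI.

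The 10 genes were not equally specific to lineage-low cells. Plek was found in 13 of 15 granulocyte or monocyte cells (86.7%), in 7 of 17 B-lymphoid cells (41.2%) and in 42.5% of lineage-low cells. Cd9 was found in 46.7% of the granulocyte or monocyte cells, 11.8% of the B-lymphoid cells and 38.8% of the lineage-low cells. Itga2b was found in 33.3%, 5.88% and 25.4% of these cells in that order. Of the 3 erythroid cells of WT replicate 2, none had a UMI of any of the 10 genes at equal depth. Mat KO replicate 1 had 8 of the 15 granulocyte or monocyte cells, and the part of this mixture in the library sums was not tested. Summed over lineage-low cells alone, Vwf had a log2 fold change of 1.09 between Mat KO and WT (unadjusted p = 0.07, adjusted p = 0.759, edgeR), Clu one of -3.66 and Itgb3 one of 0.79, and none passed.

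Most cells held few of these transcripts. At equal depth 29 of 170 cells had none of the 10 genes, 56 had 1, 46 had 2, 21 had 3 and 18 had at least 4. The mean number per cell was 1.67 and 1.78 in the Mat KO libraries against 1.72 and 1.75 in the WT libraries, a difference of -0.01 (exact two-sided permutation p = 1, n = 2 libraries each). Cells with at least 4 of the 10, the operational definition of platelet-gene-rich cells used here, made up 5 of 39 and 4 of 41 Mat KO cells (12.8% and 9.76%) and 4 of 46 and 5 of 44 WT cells (8.7% and 11.4%). The exact permutation p was 0.667, and the exact binomial 95% intervals of the 4 libraries ran from 2.42% at the lowest bound to 27.4% at the highest. The class is a range of a count and not a cell type, since 11 of its 18 cells sat at the limit and 21 cells lay 1 gene below it. Cells with 6 or 7 of the genes were seen in WT libraries, 3 in all, and the Mat KO maximum was 5 in this draw, while over all UMIs the most was 7 and 6 in Mat KO libraries and 8 in each WT library.

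The mean over all draws was 1.45 and 1.83 genes per cell for Mat KO libraries and 1.76 and 1.89 for WT libraries, and at least 4 genes were held by 7.47% and 10.8% of Mat KO cells against 12.7% in each WT library. The draw reported first was thus high for Mat KO replicate 1, and the direction of the share depends on it. Without thinning, the mean was 2.27 and 2.58 in the Mat KO libraries against 3.04 and 3.10 in the WT libraries, higher in the deeper WT libraries.

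**Figure D3:**
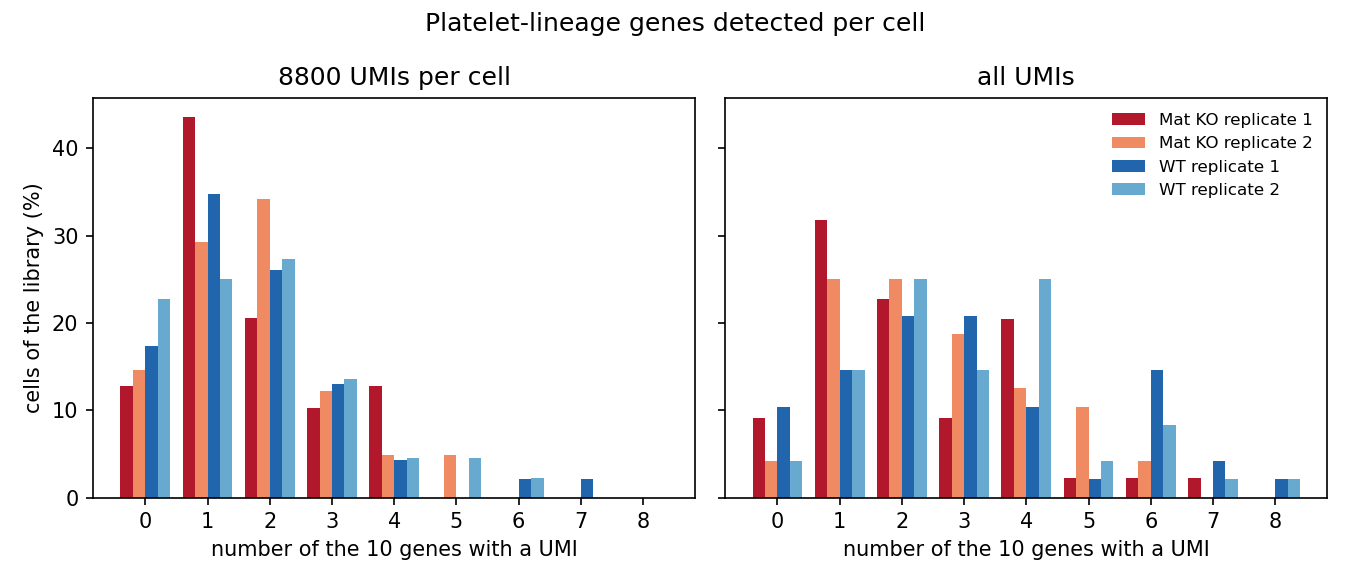
Share of each library's cells by the number of the 10 platelet-lineage genes with a UMI, at 8800 UMIs per cell (left) and with all UMIs (right), Mat KO bars left of WT bars. At equal depth the means lie between 1.67 and 1.78 genes in all 4 libraries, and cells with 6 or 7 genes are from WT libraries.

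The genes met in the same cells more often than their separate shares would give. Of 45 pairs, 24 had an expected count of at least 2 cells from the product of the shares within libraries, and 17 of these were seen more often and 7 less often, with a median ratio of 1.28. Itga2b and Gp9 shared 10 cells where 5.16 were expected, Itga2b and Pf4 shared 13 where 7.41 were expected, and Pf4 and Cd9 shared 19 where 11.8 were expected. Vwf shared 11 cells with Itga2b where 7.07 were expected and 8 with Pf4 where 4.82 were expected. Vwf was not met above its product with every gene, with 3 cells shared with Gp9 where 3.2 were expected and 2 with Itgb3 where 2.85 were expected. The cells differ in type and in the quality of their capture, which the product does not take into account, so the ratios are a description.

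**Figure D4:**
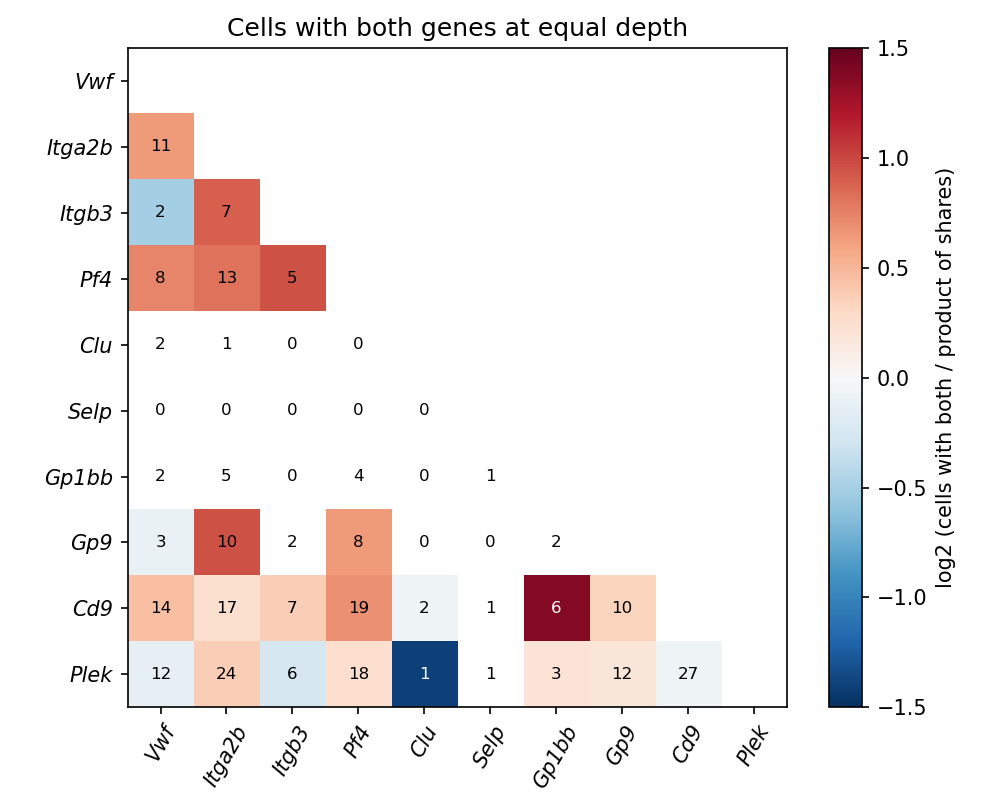
Number of equal-depth cells that held both genes of a pair (digits), coloured by the log2 ratio to the product of the shares within libraries where that product is at least 2 cells. Itga2b with Pf4, Itgb3 and Gp9 lies above the product, and Clu and Selp were met with the others in few cells or none.

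Itga2b, Pf4 and Gp9 shared more cells than the product of their shares in each of their 3 pairs, and their promoters are shown as examples. The windows run from 250 bases before the annotated start to 50 bases after it (RefSeq, GRCm38.p6), at chr11:102469834-102470133 on the minus strand for Itga2b, chr5:90772185-90772484 on the plus strand for Pf4 and chr6:87777820-87778119 on the plus strand for Gp9. Capitals mark GATAA, the core read by GATA factors, CCGGAA and AGGAAG, cores read by ETS factors, on either strand.
Itga2b: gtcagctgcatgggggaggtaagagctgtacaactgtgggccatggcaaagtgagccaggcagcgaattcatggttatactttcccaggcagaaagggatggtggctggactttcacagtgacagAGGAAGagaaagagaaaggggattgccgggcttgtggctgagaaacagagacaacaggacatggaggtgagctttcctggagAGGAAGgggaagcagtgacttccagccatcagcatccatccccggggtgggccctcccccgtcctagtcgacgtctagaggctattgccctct
Pf4: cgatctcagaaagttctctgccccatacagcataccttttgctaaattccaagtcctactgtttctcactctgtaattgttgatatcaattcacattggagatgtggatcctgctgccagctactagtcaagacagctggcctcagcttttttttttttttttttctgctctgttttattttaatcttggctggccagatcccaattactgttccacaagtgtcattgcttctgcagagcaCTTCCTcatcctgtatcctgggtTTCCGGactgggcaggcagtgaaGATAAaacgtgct
Gp9: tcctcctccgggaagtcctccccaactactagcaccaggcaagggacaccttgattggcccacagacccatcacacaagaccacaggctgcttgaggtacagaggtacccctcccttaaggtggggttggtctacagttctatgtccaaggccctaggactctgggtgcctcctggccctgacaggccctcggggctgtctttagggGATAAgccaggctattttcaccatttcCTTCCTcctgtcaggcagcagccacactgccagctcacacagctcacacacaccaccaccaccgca
Windows were at hand for 7 of the 10 genes (Itga2b, Pf4, Selp, Gp1bb, Gp9, Cd9 and Plek). GATAA or its reverse TTATC was in 3 of them, in Pf4 37 bases after the start, in Gp9 43 bases before it and in Plek 196 bases before it, and was in 25.4% of 32851 promoters of the same length. AGGAAG or CTTCCT was in 6 of the 7 and in 35.4% of all promoters, and CCGGAA or TTCCGG was in 2 of the 7 (Pf4 and Cd9) and in 14.9% of all. A match of letters is not a measured site. RefSeq starts need not match the GENCODE gene spans given above. The start used for Plek, with its window at chr11:17008669-17008968, lies inside its span, as does that of Itga2b.

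The richest cell came from WT replicate 1 and held 7 of the 10 genes at equal depth. Among its 130164 UMIs were 78 of Gp9, 37 of Gp1bb, 28 of Itga2b, 23 of Pf4, 16 of Plek, 13 of Vwf and 4 of Cd9, with none of Itgb3, Clu or Selp. It also had 14 UMIs of Gata1, the erythroid and megakaryocytic transcription factor. The richest Mat KO cell of lineage-low type, in replicate 2, held 86 UMIs of Pf4, 44 of Plek, 43 of Itga2b, 16 of Cd9 and 6 of Vwf, with 11 of Gata1. Of the 18 rich cells, 16 were lineage-low and both others were granulocyte or monocyte cells of Mat KO libraries. At equal depth Pf4 was found in 15 of the 18, Itga2b, Cd9 and Plek in 14 each and Vwf in 10, while Clu and Selp were found in none. Over all UMIs, Clu was in 2 of the 18 and Gata1 in 5.

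Measures that did not enter the count of the 10 genes were compared between rich cells and cells with 0 or 1 of the genes, library by library. Other megakaryocyte and platelet genes were more often present: the median number detected was 11 and 9 in rich cells of Mat KO against 8 and 6.5 in cells with 0 or 1 gene, and 9.5 and 12 against 7 and 8 in WT. Their median share of a cell's UMIs was higher in rich cells of all 4 libraries, by 0.114 and 0.108 percentage points in Mat KO and 0.0398 and 0.182 in WT. An exact sign-flip permutation test over the 4 libraries gave p = 0.125, the smallest it allows, and 0.583 after Benjamini-Hochberg adjustment over 14 measures. Markers of erythroid cells were higher in rich cells of 3 of the 4 libraries, with median shares of 0.125% and 0.0455% in Mat KO against 0.0682% and 0.0511% in cells with 0 or 1 gene, and 0.136% and 0.114% against 0.0682% in each in WT. Rich cells were also deeper before thinning, with medians of 54681 and 58132 UMIs in Mat KO against 40953.5 and 46109.5 in cells with 0 or 1 gene, and 99683.5 and 69197 against 60311.5 and 52854 in WT. Of the 18 rich cells 16 were lineage-low, against 62 of the 85 cells with 0 or 1 gene, so the 2 sides also differed in lineage. The part of lineage, erythroid markers and depth in the difference was not tested.

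Cell cycle genes gave another picture in WT than in Mat KO libraries, without a test that could pass. In WT libraries the median share of UMIs from S phase genes was 0.301% and 0.364% in rich cells against 0.0795% and 0.102% in cells with 0 or 1 gene. In Mat KO libraries it was 0.0682% and 0.0795% in rich cells against 0.0795% and 0.0511%. For G2/M genes the WT values were 0.142% and 0.432% against 0.0227% and 0.0455%, and the Mat KO values 0.0114% and 0.0341% against 0.0284% and 0.0341%. The list of long-term stem cell genes ran the other way in WT, at 0.46% and 0.42% in rich cells against 0.767% and 0.659%, and was 0.75% and 0.619% against 0.625% and 0.688% in Mat KO. The genotypes did not overlap in these differences, with an exact permutation p of 0.333 for each of these lists (the smallest possible, and 0.933 after Benjamini-Hochberg adjustment over 14 measures). Of the 14 measures, depth before thinning and immediate early genes did not overlap either. With 2 libraries against 2, 39.1% of the genes tested did not overlap between the genotypes in CPM. The medians rest on 5 and 4 rich cells in Mat KO and 4 and 5 in WT. Of these, 4 and 3 were lineage-low in Mat KO, as were all in WT. A Mat KO cell with 5 of the genes had S phase and G2/M shares of 0.436% and 0.558% over all its UMIs, within the range of the WT rich cells. A Mat KO replicate 1 cell of granulocyte or monocyte type, with 4 of the genes, had 0.66% and 0.342%. Its S phase share was above that range.

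**Figure D5:**
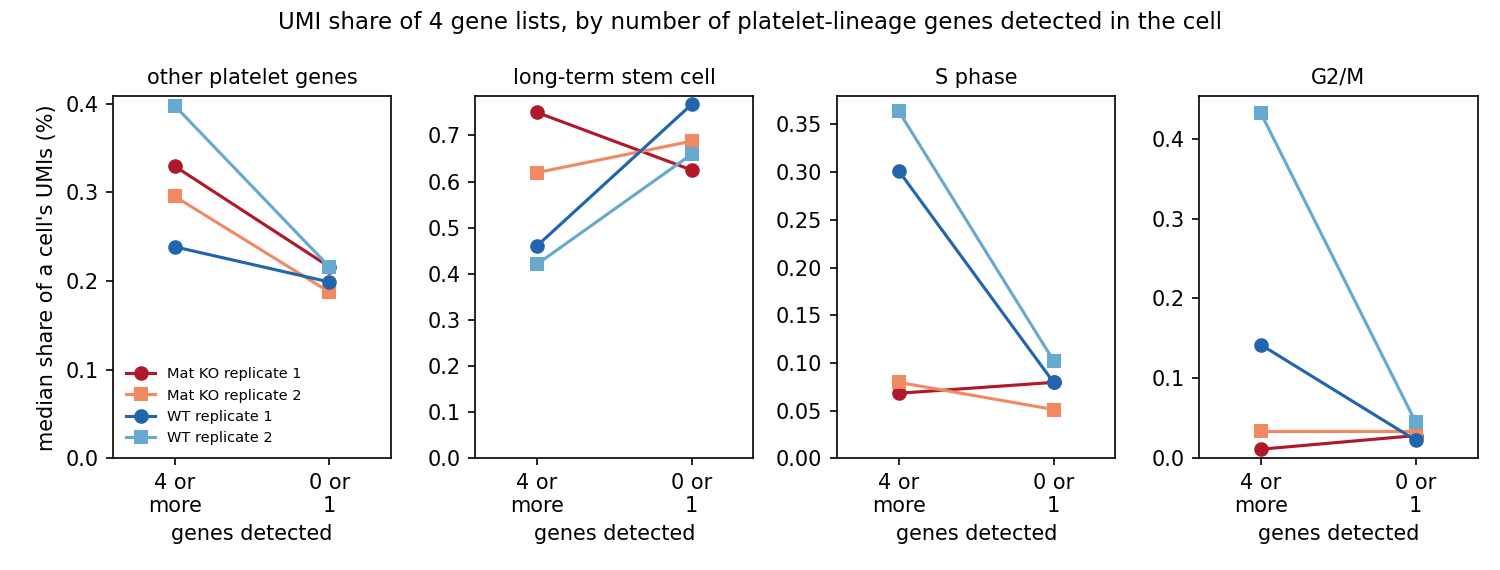
Median share of a cell's UMIs (equal depth) from 4 lists of genes, in cells with at least 4 of the 10 platelet-lineage genes and in cells with 0 or 1, with a line for each library. The other platelet genes are higher in rich cells of all 4 libraries, and the S phase and G2/M shares are higher in rich cells of the WT libraries.

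The genes most alike to the number of platelet-lineage genes per cell were sought among 6926 genes found in at least 10% of equal-depth cells, by the Spearman correlation within each library, averaged over the 4 libraries (170 cells). Among the 10 highest were Apoe (0.37), Plxnc1 (0.34), Dpy30 (0.32), Ppfibp2 (0.31), Ctla2b (0.30), Nrgn (0.29), Ctla2a (0.28) and Ptpn22 (0.28), where the median gene had 0.01. Apoe encodes apolipoprotein E and Plxnc1 a semaphorin receptor. Apoe was positive in every library, between 0.32 and 0.49, but it was picked as the highest mean of these same values, so this is no separate support. The 95th percentile over all 6926 genes was 0.15. Of the other megakaryocyte and platelet genes, 18 of 21 measured had a mean correlation above 0, with a median of 0.08, where 56.1% of all genes lay above 0. Rab27b (a GTPase of platelet granule release) had 0.26 and F2r (the thrombin receptor PAR1) 0.23. The 170 cells include those of other lineages, which differ in the number of the 10 genes. The mean was 0.588 in B-lymphoid cells, 2.13 in granulocyte or monocyte cells and 1.87 in lineage-low cells. The part of lineage in these correlations was not tested.

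The other genes of the lineage, a list of 42 of which 40 had a row, were compared between the genotypes in the same fit. Of the 31 tested, 14 had estimates above 0 and 17 below 0, and none passed the adjusted threshold (0.075% of all genes did). Their median log2 fold change was -0.06, and 3 had an unadjusted p under 0.05. Thbs1 (thrombospondin 1, an alpha-granule protein) averaged 71.4 ± 22.1 CPM in Mat KO and 4.22 ± 3.36 in WT (SD, n = 2 each), with a log2 fold change of 4.10 (SE 0.72, adjusted p = 0.0873, edgeR), which did not pass. A single cell held 92 of its 106 UMIs in Mat KO replicate 1 and another 135 of 154 in Mat KO replicate 2, against 13 of 21 and 4 of 6 in WT. The share of cells with a Thbs1 UMI was 11.4% and 12.5% for Mat KO libraries and 14.6% and 6.25% for WT libraries. Also with estimates above 0 were Cxcr4 (0.88, a chemokine receptor), P2ry12 (1.88, the platelet ADP receptor) and F2rl2 (1.69, a thrombin receptor), with edgeR adjusted p between 0.705 and 0.809.

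Among the lower estimates with the smallest p were those of 2 transcription factors, Gfi1b and Gata1. Gfi1b, a transcriptional repressor of erythroid and megakaryocytic cells, averaged 12.8 ± 0.507 CPM in Mat KO and 38.5 ± 5.56 in WT, with a log2 fold change of -1.55 (SE 0.66, adjusted p = 0.602, edgeR). Gata1 averaged 4.43 ± 2.54 in Mat KO and 18.7 ± 8.72 in WT (edgeR log2 fold change -2.04, adjusted p = 0.693). Its UMIs came from 1 cell of each Mat KO library and from 3 and 8 cells of the WT libraries, with 25 of 40 in a single cell of WT replicate 1. WT replicate 2, which held the 3 erythroid cells, was the highest library for Gata1 (24.9 CPM) and Gfi1b (42.4 CPM). The part of those cells was not tested. Cd151, a tetraspanin, averaged 8.57 ± 4.67 in Mat KO and 30.9 ± 1.5 in WT (log2 fold change -1.81). None of these 3 passed the test. Ppbp, a platelet chemokine, had no UMI in Mat KO cells and was found in 4 WT cells with 41 UMIs, below the filter of the fit. Of these, 38 UMIs were in 3 cells of WT replicate 1 and 3 in 1 cell of WT replicate 2. Clec1b, also below the filter, went the other way, with 6.33 CPM on average in Mat KO and 1.54 in WT. The averages of Gp1ba, Treml1, Tubb1, Alox12 and Serpine2 were lower in Mat KO, and Gp6 and Myl9 had no UMI.

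Vwf-positive cells were then compared with Vwf-negative cells of the same library, among lineage-low cells at equal depth. Mat KO replicate 1 gave 6 positive and 19 negative cells, Mat KO replicate 2 gave 10 and 25, and WT replicate 1 gave 8 and 31. WT replicate 2 had 3 positive cells, under the minimum of 5, and was not used. Vwf chose the cells and was not tested. Of 2319 genes tested with library as a block, 0% passed the adjusted threshold by edgeR (0 genes, 101 at an unadjusted p under 0.05), and DESeq2 also called 0 (67 at an unadjusted p under 0.05).

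Among the members, 3 passed the filter of that fit, which can keep a gene through its Vwf-positive or its Vwf-negative sums alone. Pf4 had 10 UMIs in 6 positive against 9 in 19 negative cells of Mat KO replicate 1, 7 in 10 against 3 in 25 in Mat KO replicate 2, and 18 in 8 against 26 in 31 in WT replicate 1. It was higher in CPM in positive cells of all 3 libraries, with a log2 fold change of 1.79 (SE 0.55, unadjusted p = 0.00562, adjusted p = 0.984, edgeR). The CPM of Pf4 was 189, 79.5 and 256 in positive sums against 53.8, 13.6 and 95.3 in negative sums. Pf4 was kept by the filter through its positive sums, so its direction and p are no separate support for a link to Vwf. Itga2b and Gp9 were not kept. In WT replicate 2, which the fit did not use, Pf4 was in 0 of 3 positive and 12 of 32 negative cells. Cd9 had a log2 fold change of 0.05 and Plek one of -0.40, and for both the libraries disagreed in direction. Itga2b was found in 2 of 6, 4 of 10 and 5 of 8 positive cells, against 2 of 19, 8 of 25 and 6 of 31 negative cells of these libraries, and in 0 of 3 against 7 of 32 in WT replicate 2. Gp9 went the other way in the Mat KO libraries, in 0 of 6 and 0 of 10 positive against 3 of 19 and 5 of 25 negative cells, and was in 2 of 8 against 2 of 31 in WT replicate 1 and 1 of 3 against 10 of 32 in WT replicate 2. Itgb3 was in 7.41% of all 27 positive and 9.35% of all 107 negative cells.

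Other genes with small p in this split were given by rule. Since p in this split chose them, agreement over the same libraries is no separate support. Phf5a, Abcg2 and Pbdc1 were kept by the filter through their Vwf-positive sums, and Ccl4 and Smg6 through their Vwf-negative sums. With higher CPM in Vwf-positive cells of all 3 libraries there were Phf5a (log2 fold change 2.45, a splicing factor subunit), Rbm26 (1.46), Atp5j (0.89, an ATP synthase subunit), Abcg2 (1.72, the transporter behind the side population of stem cells) and Pbdc1 (1.80). With lower CPM in Vwf-positive cells of all 3 there were Ctla2a (-1.05), Ccl4 (-2.12, a chemokine), Klf6 (-1.004), Mycbp2 (-1.32), Smg6 (-1.87) and Sik1 (-1.31). The smallest adjusted p among them was 0.731 by edgeR, so none passed. Of the long-term stem cell list, 17 genes were tested, 9 with estimates above 0 and 8 below, and none passed. The test of whether the split differed between the genotypes called 1 of 3009 genes (0.0332%), which was not among the 10.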

How the data were processed

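Single cells from 4 libraries were profiled by a modified STRT-seq method, with cells picked by mouth pipette after sorting, per the labels' protocols. The authors deposited whole-number UMI counts for each gene and barcode, not normalized. TopHat2 2.0.12, HTSeq and the mm10 build are named in the submitters' processing notes, and the sources used here do not say how strand and multi-copy genes were counted. The 95 spike-in and marker rows stayed out of library sizes.

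The 10 genes and all lists were chosen with earlier results of these data known. Cells with at least 1000 genes were kept, and doublets were not called, as each cell was picked by hand. Counts were summed per library and tested with edgeR 4.0.16 (quasi-likelihood, TMM, filterByExpr, R 4.3.3) on genotype alone, and Benjamini-Hochberg adjusted p-values under 0.05 over all genes were called. Standard errors are the log2 fold change divided by the root of its F statistic. DESeq2 1.42.0 was an alternative. The Vwf split used the same test on thinned counts with library as a block. In each fit the low-count filter keeps a gene that is high enough in 1 group alone, so such a gene enters through its higher group. Shares were compared by exact two-sided permutation over libraries. Thinning drew each cell to 8800 UMIs without replacement (near the 10th percentile of depth). The scripts were tested on simulated data.

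Lineage-low cells have under 1% of UMIs from granulocyte and monocyte genes, under 0.5% from erythroid genes and under 0.2% from each of B-lymphoid, T and NK, and mast cell genes. These limits were set after seeing the data. The other platelet list and the stem cell list share 4 genes.

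Named genes are the 10 members, the 4 of smallest p in each direction of the other platelet list, the 6 of smallest p in each direction of the Vwf split, and the 10 most alike to the number of members per cell. Some genes named by this rule are not reported here. The richest cells, Rab27b and F2r, and Ppbp with the other platelet genes below the filter, were named after their values were seen.

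UMIs are not all independent molecules in these libraries, so intervals and limits from counts of 0 cover counting error only. Whether a genotype's libraries stem from different animals is not in the labels, so the spread behind each p-value may be technical. Equal replicate numbers were checked for pairing: deviations from the genotype means correlated at -0.0219 over 8992 genes, so the numbers were not taken to pair the libraries.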

Additional observations from a re-analysis of the deposited data

Results flagged for a closer look

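The difference between Vwf-positive and Vwf-negative cells was set against genotype in an interaction test, which called 1 of 3009 genes (0.0332%). Egr3, an immediate early transcription factor, had a log2 difference of 9.30 between the split in Mat KO and the split in WT (adjusted p = 0.0324, edgeR). Its thinned UMIs were 13 in positive and 17 in negative cells of Mat KO replicate 1, 42 and 20 in Mat KO replicate 2, and 0 and 40 in WT replicate 1. The WT side rests on 1 library whose positive cells had no Egr3 UMI, so the fitted size depends on the prior count and is no bound. Without thinning, when all 4 libraries entered, 5 genes were called, among them Egr3 with a log2 difference of 3.65 (adjusted p = 0.0143, edgeR).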

How the results depend on the processing

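None of the 10 genes passed the threshold between Mat KO and WT in the settings in which it could be tested. Clu, Selp and Gp1bb gave no value under the stricter filter or with thinned cells, Clu and Selp none without the leading cells, Selp none without WT replicate 1, and Itgb3 none with thinned cells. Of 140 values under other settings, 129 kept their direction, and the smallest edgeR or DESeq2 adjusted p was 0.0789. The count of all genes called was 8 and moved to 109 with DESeq2, 149 with no filter on low counts, 1 with cells thinned to equal depth, 4 in lineage-low cells, 1 and 4 with the lineage limits halved and doubled (chosen after seeing the data), 5 in cells with at least 2000 genes, 0 without each gene's leading cell, and 17 to 123 when a library was left out.

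With the replicate number as a block, 109 genes were called (90 higher and 19 lower), none of them among the 10, and Selp turned to 0.35. Selp also turned to 0.21 in lineage-low cells, 0.32 and 0.085 with those limits halved and doubled, and ran from -0.90 to 0.033 when a library was left out. Pf4 turned to 0.07 with the limits halved. It was farthest from 0 with each cell thinned to equal depth, at -1.25 (unadjusted p = 0.0141, adjusted p = 0.611, edgeR). Cd9 turned to 0.18 without the leading cells. With a library left out, Cd9 ran from -0.40 to 0.33 (highest without WT replicate 1), Plek from -1.06 to 0.32 (above 0 without Mat KO replicate 1 or WT replicate 2, the second giving 0.31) and Vwf from -0.15 (without Mat KO replicate 2) to 1.30. The cause was not tested.

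The difference in the share of cells with at least 4 genes, 1.26 percentage points (Mat KO minus WT), turned to -10.3 without thinning, -1.97 and -4.90 at 5000 and 20000 UMIs, -3.23 with at least 2 UMIs per gene, -0.856 and -3.14 for at least 3 and at least 5 genes, -3.62 as a mean over all draws, and -0.274 to 2.79 when a library was left out. The mean number of genes per cell, -0.01, was -0.645 without thinning, -0.0592 and -0.322 at 5000 and 20000 UMIs, -0.266 with at least 2 UMIs, -0.20 in lineage-low cells and -0.183 over all draws, and ran from -0.067 to 0.0468 when a library was left out. Among single genes, Itga2b turned to -0.758 points without thinning, -4.32 at 20000 UMIs, -5.79 with at least 2 UMIs, -1.42 over all draws, and -0.535 (without Mat KO replicate 2) to 10.7 with a library left out. Plek turned to -8.05, -5.88, -3.89 and -2.89 in the same order of the first 4 settings. With a library left out Gp9 ran from -15.1 to 1.25 (without WT replicate 2), and Cd9 from -7.29 to 7.03 (without Mat KO replicate 2; 4.61 without WT replicate 1). Cd9 turned to 0.0604 at 20000 UMIs.

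In the Vwf split, 17 genes were called when cells of other lineages stayed in, and 1 gene with no filter. Cd9 turned to -0.009 with all kept cells, -0.33 with DESeq2 and -0.20 with no filter. The interaction called 5 genes without thinning (chosen after seeing the data). A split at 2 or more Vwf UMIs was not run, since only Mat KO replicate 2 had 5 such cells. Clu, Selp and Gp1bb rest on few cells, with UMIs in 15, 9 and 13 of 188.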
